A study of Mus musculus with 12 samples.

Results

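Regulatory T cells (Tregs) of perigonadal white adipose tissue (PGWAT, the fat depot around the gonads) were compared with Tregs of the spleen in control mice on a high fat diet. The comparison holds the 3 arrays titled for PGWAT and the 3 titled for spleen of the Foxp3Cre genotype. These are 6 of the series' 12 arrays. The arrays were grouped by those titles and not by measured values, although earlier results of these data were known. All 12 arrays came from C57BL/6 mice on a high fat diet. The control mice carried Foxp3Cre alone, a Cre recombinase made in cells that use the Foxp3 promoter, and the other 6 arrays, 3 for each tissue, came from mice that carried a floxed Tbet gene with Foxp3Cre. Both groups compared thus carried the Cre transgene, and mice without it are not part of the comparison. The labels give no age or sex, and they do not say how the cells were isolated, how pure they were, or whether the 3 arrays of a group came from separate animals or pools. The p-values therefore measure the spread between these arrays only, which may be technical.

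Tregs are CD4 T cells that hold the transcription factor Foxp3 and restrain other immune cells. Those of visceral fat are known in the mouse for the nuclear receptor PPARgamma (Pparg), for the cytokine Il10, for the receptor of interleukin 33 and for receptors that let them take up lipids, while those of lymphoid organs hold more genes of resting, recirculating T cells. Visceral fat also holds macrophages, stromal cells, endothelium and adipocytes, and macrophages become more abundant there in obese mice.

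Total RNA was amplified, labelled and hybridised to single-colour Illumina mouse whole-genome bead arrays, on which a probe's brightness stands for the level of its transcript. Levels are given as normalized log2 intensity, so that a difference of 1 log2 unit is a 2-fold difference in brightness, and levels of different genes cannot be set against each other. A probe counted as above background on an array when its detection p was under 0.05. Each tissue lay on its own chip of 6 arrays, so tissue and chip cannot be told apart. Between 12656 and 14753 probes per PGWAT control array and between 14280 and 17090 per spleen control array were detected at p under 0.01. The PGWAT control arrays differed more among themselves than the spleen control arrays did, with correlations over all features of 0.774 to 0.805 against 0.978 to 0.984 and a median standard deviation per feature of 0.552 against 0.187 log2 units.

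The labelled cell type was checked against its markers first. Foxp3 measured 5.44, 7.69 and 9.5 in PGWAT control replicates 1, 2 and 3 and 8.91, 8.39 and 8.58 in the 3 spleen control arrays. The PGWAT arrays thus spread from far below the spleen arrays to above them, and the difference of -1.08 log2 units (SE 0.77, limma adjusted p = 0.377) did not pass the threshold of a limma adjusted p under 0.05. Without PGWAT control 3 the adjusted p of Foxp3 fell to 0.0341. A further Foxp3 probe measured 7.09, 8.86 and 7.65 in PGWAT and 7.96, 7.99 and 8.14 in spleen, and a dimmer probe 5.97, 5.67 and 5.9 and 5.8, 5.07 and 5.49. On these probes the PGWAT arrays did not repeat the order of the brightest probe, and replicate 2 was the highest PGWAT array on the second. The T cell surface genes Cd3e and Cd2 were above background on all 6 arrays.

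PGWAT control 1 stood apart from the other PGWAT control arrays in several lists. The summed intensity of the 17 measured genes of a Treg core list was 12.28, 12.94 and 12.89 (log2) in the PGWAT control arrays and 12.84, 12.87 and 12.63 in the spleen control arrays. For 14 genes of the T cell receptor complex and its proximal signalling the values were 12.78, 13.7 and 13.56 in PGWAT and 14.08, 13.97 and 14.03 in spleen, so that PGWAT control 1 was the lowest array of both lists. It was the highest in the summed markers of stroma, adipocytes and endothelium. Calls of named genes that changed without it are given below, and counts without it are given for some of the lists only.

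Markers of other cell types were higher in the PGWAT arrays, and their part in the results below was not tested. For macrophages and monocytes the summed intensity of 15 measured markers was 14.55, 14.6 and 14.71 in PGWAT control and 11.7, 12.16 and 12.07 in spleen control. For 9 genes of dendritic cells and antigen presentation it was 14.05, 13.98 and 14.02 and 10.69, 11.07 and 10.61. Both lists were higher in all PGWAT control arrays, and most of the macrophage markers were above background in spleen too. For 6 stromal markers it was 12.98, 10.79 and 11.76 in PGWAT against 7.0, 6.99 and 6.98 in spleen, for 5 adipocyte markers 13.06, 11.54 and 11.91 against 6.84, 6.99 and 6.86, and for 6 endothelial markers 12.27, 9.82 and 10.25 against 7.99, 7.8 and 7.95. In spleen the stromal genes Dcn, Col1a2 and Sparc and the adipocyte genes Adipoq and Fabp4 were above background on no control array. In bulk RNA, fewer cells of a type and less RNA per cell cannot be told apart, and this holds for every gene described here.

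**Figure D1:**
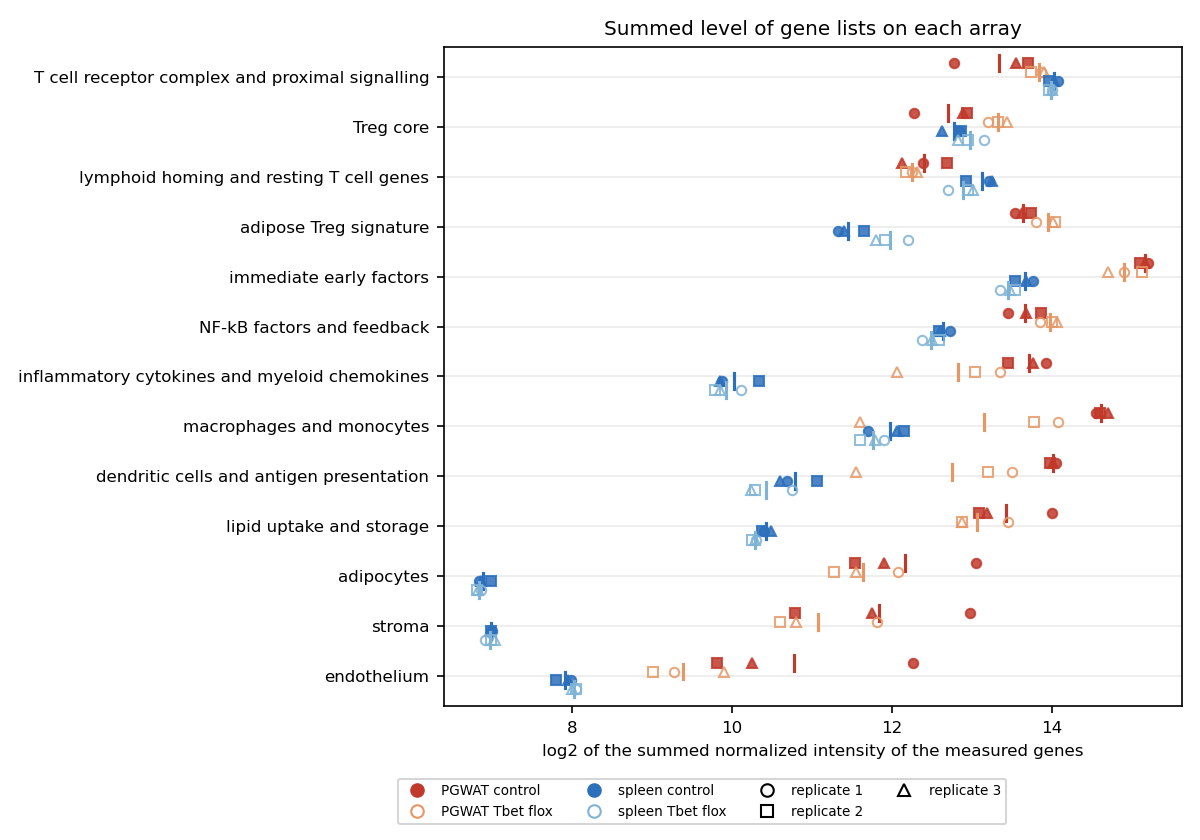
Summed level of 13 gene lists on each of the 12 arrays, as log2 of the summed normalized intensity of a list's measured genes. Symbols mark replicates 1 to 3, colours the 4 groups, and short bars the group means. The macrophage list of PGWAT Tbet flox 3 (11.61) lies among the spleen arrays, while its adipose Treg signature (14.02) lies among the other PGWAT arrays.

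The PGWAT Tbet flox arrays show how these lists can come apart within the tissue. Their macrophage markers summed to 14.08, 13.78 and 11.61 in replicates 1, 2 and 3, so that replicate 3 lay below all 3 spleen control arrays. The antigen presentation list showed the same order, at 13.5, 13.2 and 11.55. Stroma (11.82, 10.6 and 10.8) and adipocyte markers (12.08, 11.28 and 11.55) remained far above spleen in all 3. Because macrophage markers were near the spleen level in PGWAT Tbet flox 3, its values are given beside the lists below. No group was formed from it. PGWAT Tbet flox 3 is 1 array of another genotype. Of the 12 arrays it had the fewest probes detected at p under 0.01 (11252). Its endothelial markers (9.9) also stayed above spleen, so the source of a transcript cannot be read from it and was not tested.

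Of 15308 genes and unnamed probes tested, 2417 (15.8%) differed between the tissues in control mice, 915 (5.98%) higher in PGWAT and 1502 (9.81%) lower. The higher calls were larger, with a median of 2.07 log2 units against -1.48 for the lower calls, and 90 of them exceeded 4 log2 units, against 2 of the lower calls. In 267 of the higher calls no probe of the gene was above background on any spleen control array, and in 294 of the lower calls none was on any PGWAT control array. The arrays of the 2 groups did not overlap in 2408 of the 2417 calls, and in 36.9% of everything tested. Each gene was judged on its brightest probe. Of 882 called genes with several probes, 198 had a probe whose difference was of the opposite sign. Without spleen control 1, 2 or 3 the calls numbered 1196, 1350 and 1337 (542, 585 and 582 higher, 654, 765 and 755 lower). Without PGWAT control 1, 2 or 3 they numbered 2487, 3138 and 2691. The model fits 1 spread per feature to all groups, although the PGWAT control arrays varied more than the spleen control arrays. A call lost without a spleen array thus need not rest on the values of that array. The median over everything tested was -0.12 log2 units, and it was -0.22 when arrays were scaled to 1 median instead of being quantile normalized.

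The largest differences were of genes with almost no signal in spleen. Fabp4, a fatty acid carrier of adipocytes and macrophages, measured 12.98, 11.48 and 11.83 in the PGWAT control arrays and 4.43, 4.58 and 4.67 in spleen, where it was above background on no array, and was at least 158-fold higher in PGWAT (limma adjusted p = 6.84e-07). Aqp1, a water channel of endothelium and other cells, measured 12.54, 11.06 and 11.68 against 4.51, 4.47 and 4.57 and was at least 125-fold higher (limma adjusted p = 1.77e-06). Both were highest in PGWAT control 1, and no spleen array came within 6 log2 units of a PGWAT array. Such bounds set the PGWAT mean against the lowest signal above background in spleen.

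The next largest differences included chemokines and genes known from macrophages. The chemokines Cxcl1 (11.91, 11.27 and 11.45 in PGWAT) and Ccl7 (11.63, 11.25 and 11.46), which attract neutrophils and monocytes, were above background on no spleen control array and at least 107-fold and 100-fold higher. Dab2, an endocytic adaptor, at 11.33, 11.4 and 11.26, and Pf4, a chemokine of platelets and macrophages, at 10.98, 11.25 and 11.01, varied little between the PGWAT control arrays and were at least 92.6-fold and 77.8-fold higher. Retnla, a product of alternatively activated macrophages, was at least 70.9-fold higher (limma adjusted p = 3.47e-05). Pf4, Retnla and Ccl7 were lower in PGWAT Tbet flox 3 than in the other PGWAT arrays, at 7.11, 7.73 and 8.35. The cause was not tested.

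Sparc, a matrix protein of stroma and endothelium, spread from 10.05 to 12.18 in PGWAT and was at least 73.9-fold higher. Cxcl2, a neutrophil chemokine also known from adipose Tregs, measured 11.45, 11.53 and 11.35 in PGWAT and 4.98, 4.91 and 5.13 in spleen, a difference of 6.43 log2 units (SE 0.26, limma adjusted p = 4.02e-07). Cd36, a receptor for fatty acids, differed by 6.43 log2 units (SE 0.30, limma adjusted p = 6.84e-07), with 2 of 3 spleen control arrays above background. Gas7, a cytoskeletal adaptor, differed by 6.13 (also 2 of 3 above background), and Emp1, a membrane protein of many non-lymphoid cells, by 6.12 log2 units. Cxcl2 and Cd36 measured 11.27 and 10.59 in PGWAT Tbet flox 3.

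**Figure D2:**
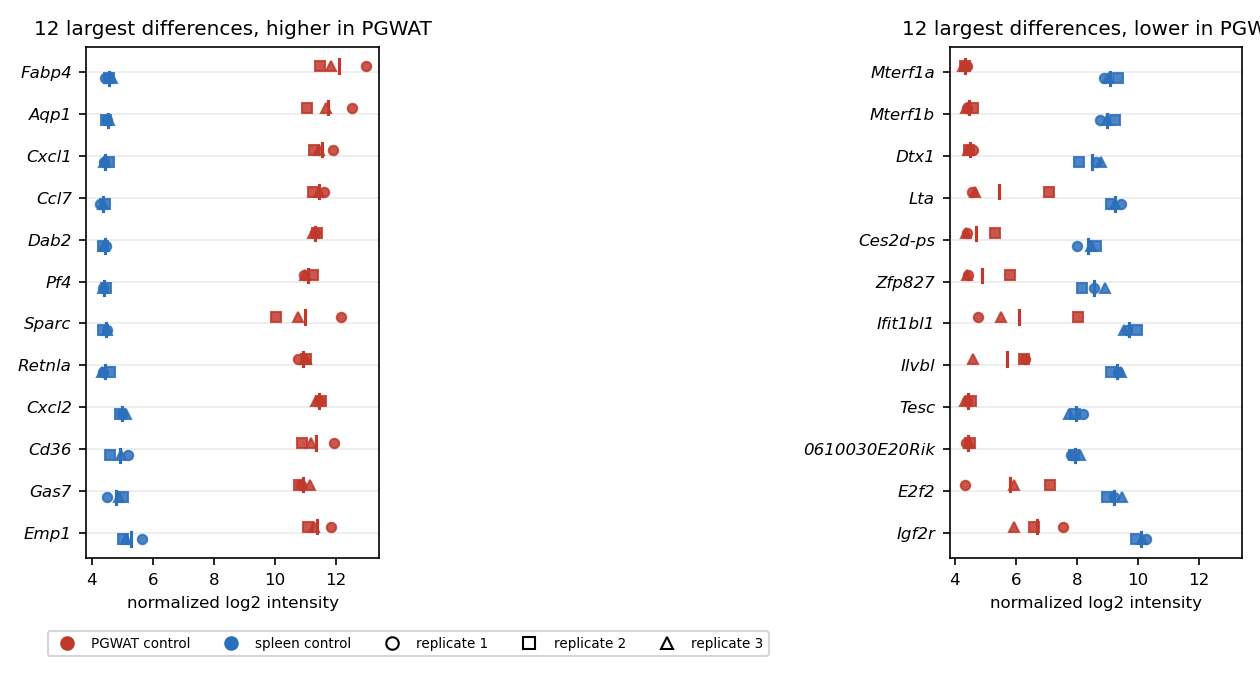
Normalized log2 intensity of the 12 genes with the largest difference in each direction on the 6 control arrays. Each symbol is an array (replicates 1 to 3), and short bars are group means. The genes were chosen so that PGWAT and spleen arrays do not overlap, which held for 36.9% of everything tested.

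The genes that fell furthest in PGWAT included genes of lymphocytes. Dtx1, which modulates Notch signalling, was above background on no PGWAT control array (4.6, 4.46 and 4.44) and measured 8.63, 8.08 and 8.78 in spleen, so that it was at least 10.9-fold lower in PGWAT (limma adjusted p = 1.66e-05). Lta, the cytokine lymphotoxin alpha, measured 4.57, 7.08 and 4.65 in PGWAT, where it was above background in replicate 2 alone, and 9.44, 9.11 and 9.25 in spleen, a difference of -3.83 log2 units (SE 0.55, limma adjusted p = 0.00119). Tesc, a calcium-binding protein, was at least 7.52-fold lower in PGWAT. E2f2, a cell cycle transcription factor, and Igf2r, a receptor that sorts lysosomal enzymes, fell by 3.43 and 3.43 log2 units. E2f2 spread over 4.34, 7.13 and 5.93 in PGWAT, yet all 3 values were below the spleen arrays.

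The largest falls were those of Mterf1a and Mterf1b, gene copies that encode a terminator of mitochondrial transcription and are so alike that their probes may not tell them apart. Mterf1a measured 4.41, 4.35 and 4.27 in PGWAT control and 8.9, 9.35 and 9.03 in spleen control, and Mterf1b 4.41, 4.6 and 4.35 and 8.76, 9.25 and 8.98. They were at least 16.5-fold and 15.4-fold lower in PGWAT, but in the PGWAT Tbet flox arrays they measured 8.42, 7.41 and 8.93 and 7.71, 7.59 and 8.56. The remaining genes of the 12 were Ces2d-ps (-3.67 log2 units), Zfp827 (-3.66), Ifit1bl1 (-3.62), Ilvbl (-3.59) and 0610030E20Rik (at least 7.43-fold lower). In PGWAT they were above background on 1 array for Ces2d-ps and Zfp827, on 2 for Ifit1bl1 and Ilvbl, and on none for 0610030E20Rik. Ilvbl lost its call without any 1 of the spleen control arrays or without PGWAT control 3 (limma adjusted p = 0.0802 to 0.0943), and without the filter on dim probes (0.0767).

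Of the 17 measured genes of the Treg core list, 1 rose and 4 fell in PGWAT, with a median of -0.58 log2 units. Over everything tested 5.98% rose and 9.81% fell, with the median of -0.12 given above, and the lists that follow are to be read beside these values. All lists were chosen with earlier results of these data known. Icos, a costimulatory receptor, measured 9.1, 9.93 and 9.74 in PGWAT and 8.38, 8.97 and 8.24 in spleen and rose by 1.06 log2 units (SE 0.28, limma adjusted p = 0.027). The Icos call was lost without PGWAT control 2 or 3 or without spleen control 1 or 3 (limma adjusted p = 0.0568 to 0.109), and with arrays scaled to 1 median, probes averaged or weights for arrays or tissues (0.0658 to 0.125). Gpr83, an orphan receptor marking Tregs, was above background on all spleen control arrays (7.6, 7.34 and 7.54) and on no PGWAT control array (4.37, 4.41 and 4.86), so that it was at least 5.44-fold lower (limma adjusted p = 0.000137). Izumo1r, the folate-receptor-like protein of T cells, fell by 2.57 log2 units (SE 0.58, limma adjusted p = 0.0136), with 2 of 3 PGWAT arrays above background.

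The other core genes that fell are surface proteins. Itgae, the integrin chain CD103 that binds E-cadherin, measured 6.81, 6.62 and 8.04 in PGWAT and 9.65, 9.62 and 9.44 in spleen, a difference of -2.42 log2 units (SE 0.45, limma adjusted p = 0.00484). Nt5e, the ectoenzyme CD73 that makes adenosine, measured 5.4, 5.64 and 5.72 and 8.12, 7.6 and 8.09, a difference of -2.36 log2 units (SE 0.36, limma adjusted p = 0.00178). All PGWAT arrays were below all spleen arrays for both. Ctla4, an inhibitory receptor, measured 9.45, 10.24 and 10.13 against 9.47, 9.4 and 9.31 and did not pass (0.54 log2 units, SE 0.24, limma adjusted p = 0.159), but passed without PGWAT control 1 (limma adjusted p = 0.0307). Il2ra, the high-affinity interleukin 2 receptor chain, differed by -0.13 log2 units (SE 0.26, limma adjusted p = 0.761) and Ikzf2, the transcription factor Helios, by -1.04 log2 units (SE 0.41, limma adjusted p = 0.116), and neither passed. Without PGWAT control 1 the list's counts were 2 higher and 4 lower with a median of 0.00, and without PGWAT control 2 they were 0 higher and 6 lower.

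**Figure D3:**
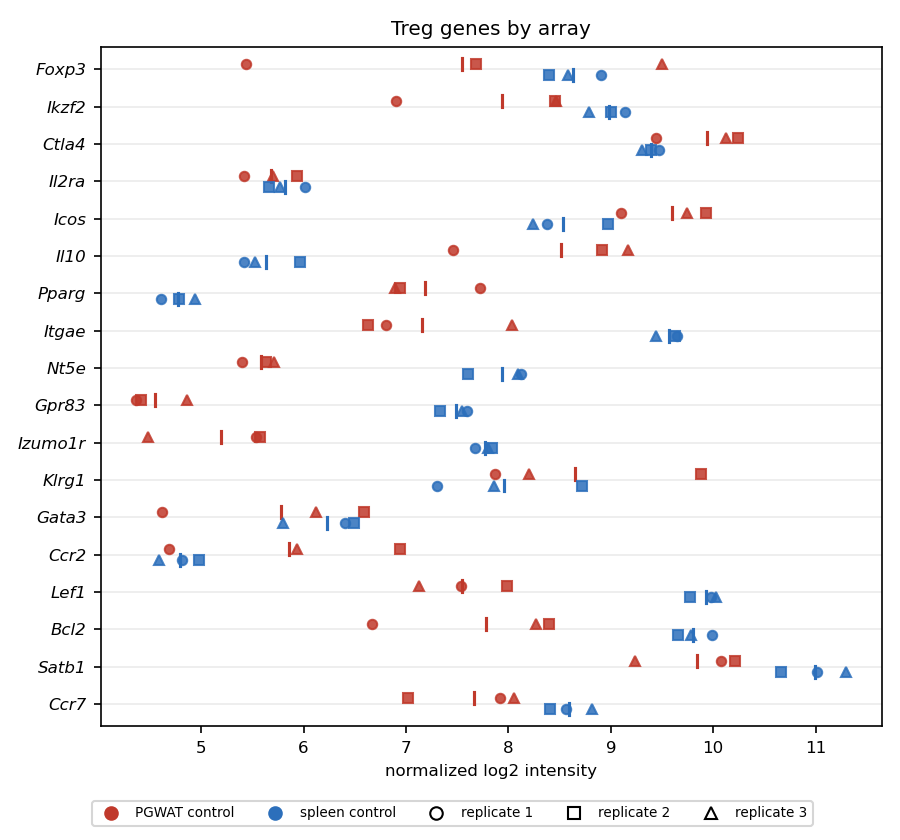
Normalized log2 intensity of 18 Treg genes on the 6 control arrays; symbols are replicates 1 to 3 and short bars are group means. Il10 and Pparg lie higher on every PGWAT array and Itgae, Nt5e, Gpr83 and Izumo1r lower, while the PGWAT arrays of Foxp3 spread from 5.44 to 9.50.

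Of 18 measured genes of an adipose Treg signature, 10 rose and 0 fell in PGWAT, with a median of 1.62 log2 units. The list holds genes known from such cells and contains some that macrophages also use, among them Cxcl2, Ccl6, Cd36 and Pparg. Pparg, the nuclear receptor that directs the adipose Treg program, measured 7.72, 6.94 and 6.89 in PGWAT and 4.61, 4.78 and 4.94 in spleen, where 1 of 3 arrays was above background, and rose by 2.41 log2 units (SE 0.30, limma adjusted p = 0.000466). Il10, an anti-inflammatory cytokine, measured 7.46, 8.91 and 9.16 and 5.42, 5.97 and 5.52 and rose by 2.88 log2 units (SE 0.46, limma adjusted p = 0.00217). Every PGWAT array was above every spleen array for both genes, and PGWAT control 1 was the lowest PGWAT array for Il10 and the highest for Pparg.

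The other members that rose included metabolic genes and transcription factors. Dgat1, an enzyme of triglyceride synthesis, measured 6.47, 7.65 and 8.47 in PGWAT and was above background on no spleen array (at least 6.66-fold, limma adjusted p = 0.00196). Ccl6, a chemokine, was at least 5.79-fold higher. The transcription factors Bhlhe40, Id2, Rora and Prdm1 also rose, by 1.93, 1.91, 1.24 and 2.7 log2 units (limma adjusted p = 0.00077, 0.00362, 0.012 and 0.0277). Prdm1, which encodes Blimp-1, spread over 6.2, 8.39 and 9.6 in PGWAT and lost its call without any 1 of the 6 arrays other than PGWAT control 1 (limma adjusted p = 0.057 to 0.0975) and without the filter on dim probes (0.067). Rora lost its call without spleen control 1 (0.057).

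Members of the signature that did not pass were mostly spread wide in PGWAT. Gata3, a transcription factor of type 2 and tissue Tregs, measured 4.62, 6.59 and 6.13 in PGWAT and 6.41, 6.49 and 5.8 in spleen (-0.45 log2 units, SE 0.43, limma adjusted p = 0.516), and its sign turned to 0.13 log2 units without PGWAT control 1. Ccr2, a receptor for monocyte chemokines, measured 4.69, 6.94 and 5.93 and 4.81, 4.98 and 4.59 (1.06 log2 units, SE 0.47, limma adjusted p = 0.157), and passed without PGWAT control 1 (limma adjusted p = 0.0128). Klrg1, a marker of differentiated Tregs, measured 7.86, 9.88 and 8.2 and 7.3, 8.71 and 7.86 (0.69 log2 units, SE 0.51, limma adjusted p = 0.397). Il5 measured 4.47, 6.65 and 6.34 and 4.49, 4.54 and 4.51 and passed without PGWAT control 1 (limma adjusted p = 0.00441). Without that array 14 of the 18 rose. Il1rl1, the receptor of interleukin 33, and Areg, a growth factor, were not analysed here. The summed signature was 14.02 in PGWAT Tbet flox 3, the array with macrophage markers in the spleen range, against 13.54, 13.74 and 13.63 in the PGWAT control arrays and 11.33, 11.65 and 11.4 in the spleen control arrays.

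Among 13 suppressor and checkpoint molecules, Il10 and Fgl2 rose and Nt5e fell. Fgl2, a secreted suppressor that myeloid cells also make, measured 8.04, 8.48 and 8.23 in PGWAT and 6.16, 6.84 and 6.69 in spleen (1.69 log2 units, SE 0.37, limma adjusted p = 0.0111), and lost its call with a weight for each array (limma adjusted p = 0.192), with a weight for each tissue (0.136) and without spleen control 1 (0.0559). Without PGWAT control 1, 4 of these genes rose and 2 fell, and without spleen control 1, 1 rose. Of 9 type 1 genes, Ccl3, Ccl4 and Ifng rose and none fell. Ifng, the type 1 cytokine, measured 9.52, 9.97 and 9.02 against 7.1, 7.84 and 7.11 (2.15 log2 units, SE 0.47, limma adjusted p = 0.0112), and just missed the threshold without spleen control 1 (limma adjusted p = 0.0518). Ccl3, a chemokine of macrophages and activated T cells, was at least 8.86-fold higher, and Ccl4 differed by 3.15 log2 units (SE 0.85, limma adjusted p = 0.0291). Ccl4 lost its call without PGWAT control 1 or 3 or spleen control 1 or 3 (limma adjusted p = 0.062 to 0.116) and with arrays scaled to 1 median, no filter on dim probes or either weight (0.0647 to 0.0988), and 1 type 1 gene rose without spleen control 1. In PGWAT Tbet flox 3 Ccl3 measured 4.36 and Ccl4 7.58, both within 1 log2 unit of a spleen control array.

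The master regulator of the type 1 program showed no shared direction. Tbx21, which encodes T-bet, measured 4.62, 7.4 and 4.96 in PGWAT and 4.8, 6.03 and 4.95 in spleen and was above background on 1 PGWAT and 3 spleen control arrays (0.4 log2 units, SE 0.97, limma adjusted p = 0.811). Its sign turned to -0.47 log2 units without PGWAT control 2. None of 7 type 2 genes and none of 5 type 17 genes passed by limma, with medians of 0.36 and -0.30 log2 units. Ccr4, a chemokine receptor of type 2 cells and Tregs, differed by 0.96 log2 units (SE 0.77, limma adjusted p = 0.429), and passed with Il5 as higher without PGWAT control 1. Il1r1, the receptor of interleukin 1, differed by 1.27 log2 units (SE 0.62, limma adjusted p = 0.198) and passed as higher without PGWAT control 2, and Il17rb, the receptor of interleukin 25, differed by -0.55 log2 units (SE 0.24, limma adjusted p = 0.145).

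All 14 measured genes of the T cell receptor complex and its proximal signalling had a lower mean in PGWAT, and 6 of them fell, with a median of -1.02 log2 units. Cd247, the zeta chain of the receptor, measured 6.03, 7.37 and 5.35 in PGWAT and 8.39, 8.28 and 8.08 in spleen (-2.0 log2 units, SE 0.43, limma adjusted p = 0.01), although a dimmer Cd247 probe differed by 0.041 log2 units. Zap70, the kinase that binds it, measured 6.41, 6.05 and 7.41 and 8.68, 8.2 and 8.53 (-1.85 log2 units, SE 0.40, limma adjusted p = 0.0103). Fyn, a Src-family kinase, fell by 1.56 log2 units (limma adjusted p = 0.00875), Cd5, an inhibitory co-receptor above background on 2 of 3 PGWAT arrays, by 1.69 (0.0129), Ptprc, the phosphatase CD45, by 1.02 (0.0124), and Cd3d, a CD3 chain, by 0.82 (0.0407). The chains Cd3e (-0.64) and Cd3g (-1.24), the co-receptor Cd4 (-1.48) and the adaptor Lat (-1.02) did not pass. Without PGWAT control 1, whose list sum was the lowest, 5 of the 14 fell and the median was -0.66. Cd3d lost its call without any 1 of the 6 arrays other than PGWAT control 2 (limma adjusted p = 0.0502 to 0.13) and with arrays scaled to 1 median or either weight (0.0699 to 0.124), whereas Cd3e, Cd3g and Cd4 passed as lower without PGWAT control 2 (0.0461, 0.0107 and 0.0408) and Lat without PGWAT control 3 (0.0229). Without spleen control 1, 3 fell, and Cd5 and Ptprc were among those that missed the threshold (limma adjusted p = 0.0528 and 0.0566). Cd5 also missed it without spleen control 3 (0.0519).

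Genes of resting and recirculating lymphocytes fell as well: of 17 measured, 5 were lower and 0 higher in PGWAT, with a median of -0.54 log2 units. Lef1, a transcription factor of naive T cells, measured 7.54, 7.99 and 7.13 in PGWAT and 9.97, 9.78 and 10.03 in spleen (-2.37 log2 units, SE 0.30, limma adjusted p = 0.00052). Dapl1, a gene of resting T cells, was above background on no PGWAT control array and at least 4.34-fold lower (limma adjusted p = 0.000401). Bcl2, a survival factor, fell by 2.03 log2 units, Foxo1, which maintains homing receptors and was above background on 2 of 3 PGWAT arrays, by 1.63, and Satb1, a chromatin organiser, by 1.15, with a dimmer Satb1 probe that did not pass at 0.30. These 3 were less firm: each lost its call without at least 3 of the 6 arrays in turn (limma adjusted p = 0.0513 to 0.111), and at least 1 of scaling to 1 median, no filter on dim probes, averaged probes and weights ended each of them too (0.0518 to 0.312), and the list held 2 or 3 falls without any 1 spleen control array or without PGWAT control 3. Ccr7, the lymph node homing receptor, measured 7.92, 7.02 and 8.05 and 8.56, 8.4 and 8.81 and did not pass (-0.93 log2 units, SE 0.51, limma adjusted p = 0.247), although the groups did not overlap. Bach2, which holds T cells in a resting state, was above background on no PGWAT control array and did not pass either (-0.47 log2 units, SE 0.25, limma adjusted p = 0.237). Tcf7 was not analysed here. The sum of the list was 12.26, 12.18 and 12.32 in the PGWAT Tbet flox arrays, 12.39, 12.69 and 12.13 in PGWAT control and 13.22, 12.93 and 13.25 in spleen control.

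Genes of tissue homing and retention were split. Of 16 measured, Cxcr4, Itga1, Cd44 and Itgb1 rose and Itgae and Cd69 fell. Cxcr4, the receptor of Cxcl12, measured 10.34, 10.47 and 10.53 in PGWAT and 8.36, 8.72 and 8.05 in spleen (2.07 log2 units, SE 0.22, limma adjusted p = 0.000196), and was similar in the PGWAT Tbet flox arrays (10.29, 10.29 and 10.47). Itga1, a collagen-binding integrin chain, was at least 2.22-fold higher in PGWAT control (limma adjusted p = 0.00123). Cd69, which retains lymphocytes in tissue, measured 8.56, 8.46 and 8.1 and 10.06, 10.39 and 9.92 on its brightest probe (-1.75 log2 units, SE 0.29, limma adjusted p = 0.00245), but another Cd69 probe differed by 0.49 log2 units in the other direction and did not pass, and with probes averaged the call was lost (limma adjusted p = 0.0803). Cd44, an adhesion receptor of activated T cells, rose by 0.85 log2 units, and lost its call without any 1 of the 6 arrays other than PGWAT control 1 (limma adjusted p = 0.0724 to 0.129). Itgb1, the integrin beta 1 chain, rose by 0.66 and lost its call without any 1 of them other than PGWAT control 2 (0.0747 to 0.175). With arrays scaled to 1 median or with either weight both calls were lost (0.0673 to 0.215) and 2 of the 16 genes rose. Without PGWAT control 1, 7 of these genes rose, and without PGWAT control 3 or any 1 spleen control array, 2 did.

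Of 9 costimulatory receptors, Icos rose and Cd27 and Tnfrsf25 fell. Cd27 measured 10.4, 10.12 and 10.12 in PGWAT and 11.39, 11.06 and 11.13 in spleen (-0.98 log2 units, SE 0.19, limma adjusted p = 0.00605). Tnfrsf25, the receptor DR3, fell by 1.54 log2 units (limma adjusted p = 0.00132), with 2 of 3 PGWAT arrays above background, and a dimmer Tnfrsf25 probe differed by 0.58 and did not pass. With probes averaged the Tnfrsf25 call was lost (limma adjusted p = 0.33). In the Tbet flox mice Tnfrsf25 differed by 0.12 log2 units (limma adjusted p = 0.785). The test of the difference between genotypes, given below, did not pass for it.

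Immediate early factors, which are induced within minutes of cell stimulation or stress, moved together: 17 of 22 measured genes rose in PGWAT and 0 fell, with a median of 1.69 log2 units. Fosl2, a partner of Jun in AP-1, measured 10.88, 11 and 10.81 in PGWAT and 5.21, 5.06 and 5.05 in spleen (5.79 log2 units, SE 0.18, limma adjusted p = 5.52e-08). Ier3, a survival gene, measured 11.11, 10.63 and 11.04 and 5.14, 5.44 and 5.7 (5.51 log2 units, SE 0.24, limma adjusted p = 4.02e-07), and Atf3, a stress-induced factor, was at least 29.9-fold higher (limma adjusted p = 4.02e-07). The groups lay more than 4 log2 units apart for all 3. Klf4, a zinc finger factor, rose by 4.84 log2 units and Nr4a2, an orphan nuclear receptor, by 3.8.

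The 3 promoters are shown because these genes had the largest rises of the list and because kappaB sites, to which NF-kB binds, were found in some of them. Each runs 5′ to 3′ on the gene's strand from 250 bases before to 50 bases after its start in RefSeq (GRCm38.p6), at chr5:32136222-32136521 (plus strand) for Fosl2, chr17:35821463-35821762 (plus) for Ier3 and chr1:191183284-191183583 (minus) for Atf3. Capitals mark kappaB sites.
Fosl2: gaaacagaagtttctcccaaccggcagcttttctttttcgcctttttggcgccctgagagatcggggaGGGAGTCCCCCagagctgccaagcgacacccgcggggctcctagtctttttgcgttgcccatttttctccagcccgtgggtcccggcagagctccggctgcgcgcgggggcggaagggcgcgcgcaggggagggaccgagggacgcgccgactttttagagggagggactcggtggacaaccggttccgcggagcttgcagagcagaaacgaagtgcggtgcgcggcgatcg
Ier3: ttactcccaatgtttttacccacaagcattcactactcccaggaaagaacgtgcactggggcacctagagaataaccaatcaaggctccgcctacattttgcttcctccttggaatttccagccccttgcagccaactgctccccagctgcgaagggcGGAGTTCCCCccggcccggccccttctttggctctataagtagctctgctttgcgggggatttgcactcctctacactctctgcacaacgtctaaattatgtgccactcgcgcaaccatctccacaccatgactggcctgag
Atf3: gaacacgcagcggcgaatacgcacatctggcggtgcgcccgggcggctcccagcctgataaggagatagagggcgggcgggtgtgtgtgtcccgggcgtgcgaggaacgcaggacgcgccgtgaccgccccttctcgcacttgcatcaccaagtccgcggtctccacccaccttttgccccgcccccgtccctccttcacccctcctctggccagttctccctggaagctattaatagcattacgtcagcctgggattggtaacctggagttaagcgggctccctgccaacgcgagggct

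The Fosl2 promoter held 2 overlapping kappaB matches, which began at positions -182 and -181 relative to the start, and the Ier3 promoter held 1, which began at -92. Egr1 and Egr3 had no promoter in the set searched. The other 15 of the 17 genes had 21 promoters, since some genes have several. A kappaB site was found in 6 of these 21 (28.6%), those of Fosl2, Ier3, Maff, Nr4a1, Fosb and Fos, against 4.51% of all 32851 RefSeq promoters of the same length. The CRE (TGACGTCA) was found in 2 (9.52%, against 1.79%), the CArG box in 4 (19%, against 1.63%), all of them promoters of Egr2, of which 3 overlap one another, and the AP-1 site (TGANTCA) in 0 (against 7.81%). Of the promoters of all genes that were higher in PGWAT, 70 of 783 (8.94%) held a kappaB site, and of those of genes that were lower, 55 of 1201 (4.58%). Both strands were searched, bases could count for more than 1 motif, and a match is a stretch of letters and not a site of binding.

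The rise of the list took in the other families of early genes as well. The AP-1 members Fosb (3.07 log2 units), Jund (1.86), Junb (1.27) and Fos (1.08) rose, Egr1 to Egr3 rose by 1.78, 1.6 and 1.44, and Nr4a1 and Nr4a3, which mark T cell receptor signalling, by 3.18 and 3.45. Nr4a3 and Maff were above background on 2 of 3 spleen control arrays. Maff rose by 3.72, and Dusp1, a phosphatase of MAP kinases, and Klf6 by 0.92 and 0.85. Jun (0.37), Myc (-0.38), Ier2 (-0.74) and Dusp2 (-1.04) were among the 5 that did not pass. Without any 1 of the 6 arrays, at least 13 of the 22 rose. The calls of Egr2 (without any 1 array other than PGWAT control 2), Fos and Junb (without spleen control 2 or 3) and Klf6 (without PGWAT control 2 or any 1 spleen control array) were lost (limma adjusted p = 0.0507 to 0.115). With arrays scaled to 1 median these 4 and Dusp1 lost their calls (0.066 to 0.14), which left 12 of the 22, and with a weight for each array Fos, Junb, Klf6 and Dusp1 did (0.0663 to 0.228). The sum of the list was 14.9, 15.13 and 14.7 in the PGWAT Tbet flox arrays, all above the spleen arrays.

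Factors of the NF-kB pathway and its feedback rose in 5 of 12 genes and fell in 0, with a median of 0.76 log2 units. Rel, an NF-kB subunit of lymphocytes, measured 8.84, 9.32 and 8.65 in PGWAT and 6.85, 6.96 and 7.29 in spleen (1.9 log2 units, SE 0.26, limma adjusted p = 0.000828). Tnfaip3, the feedback inhibitor A20, measured 9.93, 10.68 and 10.48 and 8.75, 8.62 and 8.01 (1.9 log2 units, SE 0.27, limma adjusted p = 0.00106). The IkappaB proteins Nfkbid, Nfkbiz and Nfkbie rose by 1.66, 1.39 and 1.09, and Nfkbie lost its call without any 1 of the arrays other than PGWAT control 1 and 3 (limma adjusted p = 0.0759 to 0.108) and with arrays scaled to 1 median, averaged probes or a weight for each array (0.0582 to 0.15). The sum of the list was 13.46, 13.87 and 13.68 in PGWAT control, 12.73, 12.59 and 12.61 in spleen control and 13.86, 14 and 14.07 in PGWAT Tbet flox, where replicate 3 was the highest.

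Genes of lipid uptake and storage rose in 7 of 17 cases and fell in 0, with a median of 0.92 log2 units. Besides Fabp4, Cd36, Pparg and Dgat1, these were Lpl, the lipase that frees fatty acids from lipoproteins, at 10.69, 10.82 and 10.3 in PGWAT and 5.69, 6.5 and 6.31 in spleen (4.44 log2 units, SE 0.49, limma adjusted p = 0.000243), Scd1, which desaturates fatty acids (at least 14.4-fold higher), and Plin2, a coat protein of lipid droplets (2.56 log2 units). Adipocytes, macrophages and endothelium use several of these genes too, and the sum of the list was highest in PGWAT control 1 (14, 13.09 and 13.19), as were the adipocyte, stromal and endothelial markers. Without PGWAT control 2, 9 genes rose and 1 fell. Of 9 cholesterol genes only Abca1, the exporter of cellular cholesterol, rose (2.64 log2 units, SE 0.61, limma adjusted p = 0.0148), and it lost its call without spleen control 1 or 3 (limma adjusted p = 0.0678 and 0.0513). It was at 4.35 in PGWAT Tbet flox 3, below the spleen control arrays.

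No gene of 13 in glycolysis passed in either direction by limma, with a median of 0.10 log2 units. Pgk1, a glycolytic kinase, differed by -0.66 log2 units (SE 0.24, limma adjusted p = 0.0935) and Slc2a3, a glucose transporter, by -1.15 log2 units (SE 0.38, limma adjusted p = 0.0619), and both passed as lower without PGWAT control 2 (limma adjusted p = 0.0334 and 0.012). Of 18 cell cycle genes, Mcm4, Mcm6 and Mcm7, subunits of the replication helicase, fell. Mcm6 measured 8.63, 9.31 and 8.74 in PGWAT and 10.54, 10.31 and 10.27 in spleen (-1.48 log2 units, SE 0.26, limma adjusted p = 0.00352). On dimmer probes Mcm4 and Mcm7 measured higher in PGWAT and did not pass (0.20 and 0.50 log2 units). On their brightest probes Mcm4 and Mcm7 fell by 1.41 and 2.06 but lost their calls without any 1 spleen control array (limma adjusted p = 0.0565 to 0.0904), Mcm4 also without PGWAT control 1 or 2 (0.0667 and 0.0568) and with arrays scaled to 1 median (0.115). With probes averaged neither was called (limma adjusted p = 0.567 and 0.47). Of 10 interferon response genes, Ifit3 (-1.97 log2 units, SE 0.34, limma adjusted p = 0.00334) and Ifit2 (-2.24 log2 units, SE 0.64, limma adjusted p = 0.0373), which restrain viral translation, fell, and Ifit2 lost its call without PGWAT control 3 or any 1 spleen control array (limma adjusted p = 0.0556 to 0.106) or without the filter on dim probes (0.0852). Of 12 heat shock chaperones, Hspb1 rose (2.9 log2 units, SE 0.64, limma adjusted p = 0.0122), led by PGWAT control 1 (10.1, 7.35 and 7.55), and 2 chaperones fell when PGWAT control 3 was left out. Without spleen control 1 Hspb1 missed the threshold (limma adjusted p = 0.0501).

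**Figure D4:**
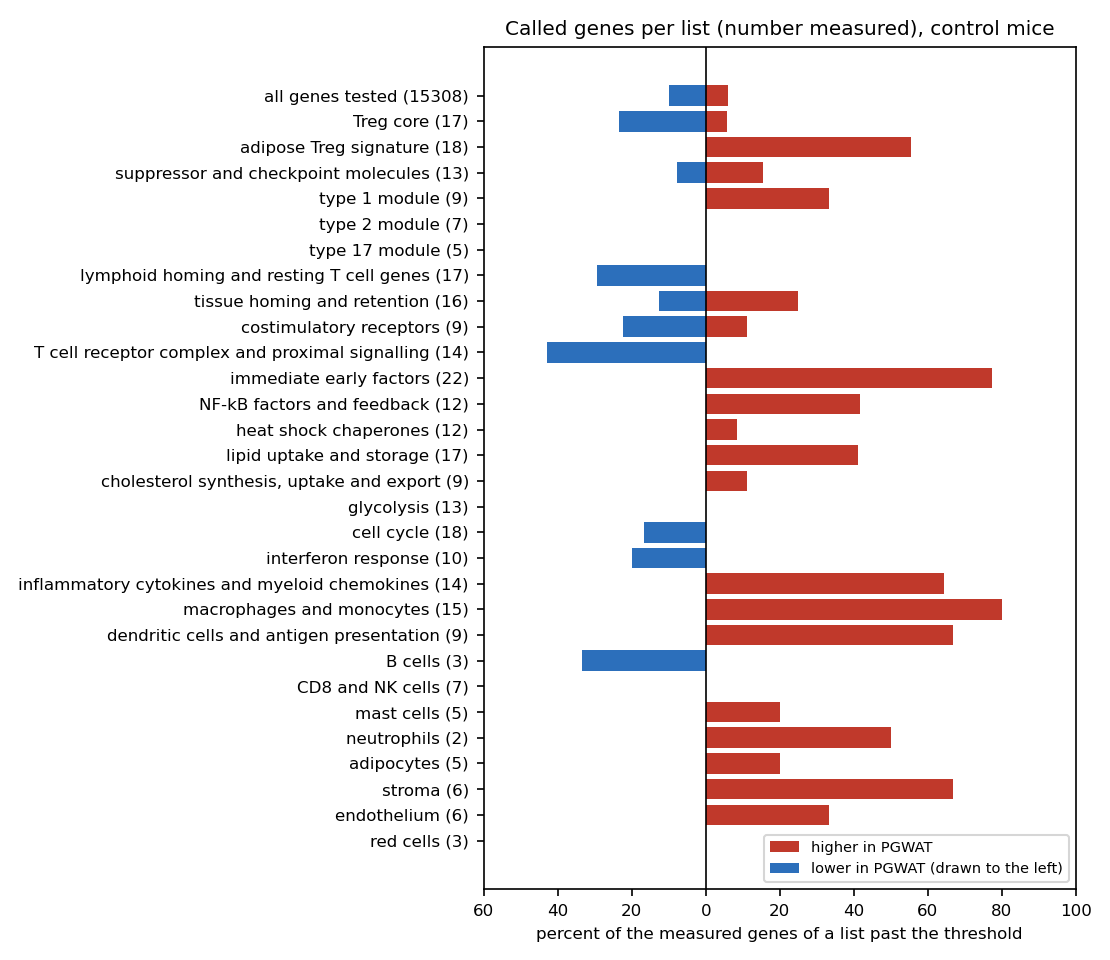
Percent of the measured genes of each list that passed the limma threshold as higher (right) or lower (left) in PGWAT control than in spleen control. The number of measured genes stands in brackets, and the top bar gives all 15308 tested, of which 5.98% were higher and 9.81% lower.

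Inflammatory cytokines and myeloid chemokines rose in 9 of 14 genes and fell in 0, with the largest median of the 19 pathway lists, 3.87 log2 units. Il6, a pleiotropic cytokine, measured 10.42, 8.36 and 8.93 in PGWAT and was above background on no spleen control array (at least 21.8-fold higher, limma adjusted p = 0.000236). Il1b, the inflammasome cytokine, measured 9.02, 8.59 and 8.58 and was at least 15.3-fold higher (limma adjusted p = 0.00561). Ccl2, which recruits monocytes, was at least 18.9-fold higher, and Il1a at least 13.7-fold. The other 5, among them Osm (-0.89), did not pass. In 8 of the 14 genes no spleen control array was above background, so that their values, and the median, rest on a spleen level at background. In PGWAT Tbet flox 3, Il1b measured 4.33 and Il1a 4.34, at the spleen level, while Il6 measured 7.99 and Cxcl1 8.61.

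Among the marker lists, 12 of 15 macrophage and monocyte markers rose and 0 fell, with a median of 3.23 log2 units. C1qa, a complement chain of tissue macrophages, measured 8.68, 9.55 and 9.83 in PGWAT and 5.43, 5.77 and 5.69 in spleen (3.73 log2 units, SE 0.53, limma adjusted p = 0.00118). Lyz1 and Lyz2, lysozyme genes too alike to be separated with confidence, rose by 4.21 and 4.08, and Apoe, a lipid carrier, by 3.68 log2 units. The defining genes Adgre1 (10.24, 10.04 and 10.9 against 7.78, 8.51 and 8.19), Csf1r (2.31) and Cd14 (at least 7.1-fold) rose too. Adgre1 lost its call without any 1 array other than PGWAT control 2 (limma adjusted p = 0.0563 to 0.123) and with arrays scaled to 1 median, no filter on dim probes or a weight for each array (0.0632 to 0.0976), and Csf1r without any 1 spleen control array (0.0535 to 0.0661). C1qc lost its call without spleen control 1 (limma adjusted p = 0.0566), when 7 of the 15 rose. Tyrobp (1.91), Mertk (0.76) and Ctss (-0.21) did not pass. In the Tbet flox mice 3 of the 15 rose, with a median of 1.64. The test of the difference between genotypes, given below, passed for none of the 15.

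Genes of antigen presentation rose in 6 of 9 cases. The MHC class II chains H2-Aa (2.97 log2 units), H2-Ab1 (3.0) and H2-Eb1 (4.48) and their invariant chain Cd74 (3.54) rose with Ccl17 and Cd209a, while 3 genes that define dendritic cells more closely did not pass. In stroma, Sparc, Dcn (at least 22.5-fold higher), Col1a2 (at least 18.3-fold) and Col3a1 rose, 4 of 6, and Col3a1 spread over 9.75, 5.47 and 8.97 in PGWAT and lost its call without any 1 spleen control array (limma adjusted p = 0.0556 to 0.0566). In endothelium, Esam (at least 21.9-fold) and Aplnr (at least 11.6-fold) rose, 2 of 6, and 4 rose without PGWAT control 2 or 3 and 5 with a weight for each tissue or each array. Of 5 adipocyte markers Fabp4 alone rose (3 did without PGWAT control 2 or with either weight), and Adipoq, which encodes adiponectin, measured 5.72, 4.69 and 6.89 in PGWAT and was above background on 2 of its arrays (limma adjusted p = 0.0536, and 0.00259 without PGWAT control 2). In 6 of 6 stromal, 3 of 6 endothelial, 4 of 5 adipocyte and 4 of 9 antigen presentation genes, 1 control group had no array above background. Over everything tested this held for 2370 of 15308. Such genes passed the filter on dim probes through other arrays, so their direction was largely set beforehand. It held as well for 8 of 14 inflammatory, 5 of 17 lipid and 4 of 18 adipose Treg signature genes.

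Few markers of other leukocytes passed. None of 7 markers of CD8 and NK cells and none of 3 of red cells passed by limma, with medians of -0.05 and 0.63. Klrd1 and Klrk1, receptors of NK cells, differed by 1.3 and 0.82 log2 units, and Klrd1 passed without PGWAT control 3. The haemoglobin genes Hba-a1 and Hbb-bs differed by 0.66 and 0.36 and were above background on all 6 arrays. Of 5 mast cell genes Hdc, the histidine decarboxylase that basophils and some myeloid cells also use, rose (4.08 log2 units, SE 0.33, limma adjusted p = 2.79e-05), whereas the mast cell protease Cpa3 was above background on 1 PGWAT and no spleen control array. Of 2 neutrophil genes S100a9 rose (at least 5.57-fold). Of 3 B cell genes Cd79b fell (-1.31 log2 units, SE 0.39, limma adjusted p = 0.0447), a call lost without any 1 of the arrays other than PGWAT control 1 (limma adjusted p = 0.0565 to 0.153) and without the filter on dim probes or with either weight (0.0526 to 0.0799), and 1 B cell gene rose without PGWAT control 3.

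The same tissues were also compared in the Tbet flox mice, on the other 6 arrays of the same 2 chips. Both comparisons came from 1 model, so they shared the normalization, the filter and the estimate of spread, and their group means came from separate arrays. There 1549 (10.1%) passed, 697 (4.55%) higher and 852 (5.57%) lower in PGWAT (377 and 1303 with arrays scaled to 1 median), and this count was 639, 660 and 617 without spleen Tbet flox 1, 2 and 3. Of the 915 genes and probes higher in control PGWAT, 852 (93.1%) measured higher in Tbet flox PGWAT as well, and 378 passed in both genotypes (41.3% of the control calls and 54.2% of the Tbet flox calls). Of the 1502 lower, 1328 (88.4%) measured lower and 458 passed in both (30.5% and 53.8%). Only 5 passed in opposite directions. Over everything tested the median tissue difference in the Tbet flox mice was -0.044 log2 units. Tissue and chip coincided in both genotypes, so this agreement cannot tell a tissue difference from a chip difference.

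Fosl2 differed between the tissues by 5.79 log2 units in control and 5.77 in Tbet flox mice (limma adjusted p = 5.7e-08 in the latter), Cd36 by 6.43 and 6.31, Pparg by 2.41 and 2.84, and Il10 by 2.88 and 3.33. In the Tbet flox mice 16 of 22 immediate early factors, 13 of 18 genes of the adipose Treg signature and 8 of 12 NF-kB genes rose and 0 of each fell. Of the 14 T cell receptor genes, Cd5 alone fell there, and the list's median was -0.23. The test of the difference between genotypes passed for none of the 14. Of the resting T cell genes 5 of 17 fell. In the type 2 list 4 of 7 genes rose in the Tbet flox mice, among them Il5 (3.57), Gata3 (1.79) and Il13 (1.69), and the test of the difference between genotypes did not pass for Il5, Gata3 or Il13 (limma adjusted p = 0.261, 0.19 and 0.234).

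That test, the tissue difference in control minus that in Tbet flox mice, passed for 18 genes and probes (0.118%), 5 (0.0327%) with a more positive and 13 (0.0849%) with a more negative difference in control, and for 1681 at an unadjusted p under 0.05. It passed for Mterf1a and Mterf1b (-3.84 and -3.39 log2 units) and for Tnik, a kinase of Wnt signalling, which measured 4.71, 5.29 and 4.37 in PGWAT control against 7.49, 7.33 and 7.73 in PGWAT Tbet flox and 7.19, 7.18 and 7.06 in spleen control (-3.14, SE 0.36, limma adjusted p = 0.00838). Pik3ap1, an adaptor of PI3 kinase, rose in control PGWAT (7.34, 7.21 and 7.27, at least 5.56-fold over spleen) and measured 4.48, 4.96 and 4.7 in Tbet flox PGWAT (2.70, SE 0.28, limma adjusted p = 0.00625). With arrays scaled to 1 median 11 passed, 6 of them more negative in control. The count was small and unsteady: it was 105, 354 and 125 without PGWAT control 1, 2 and 3, and 4, 3 and 5 without spleen control 1, 2 and 3.

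**Figure D5:**
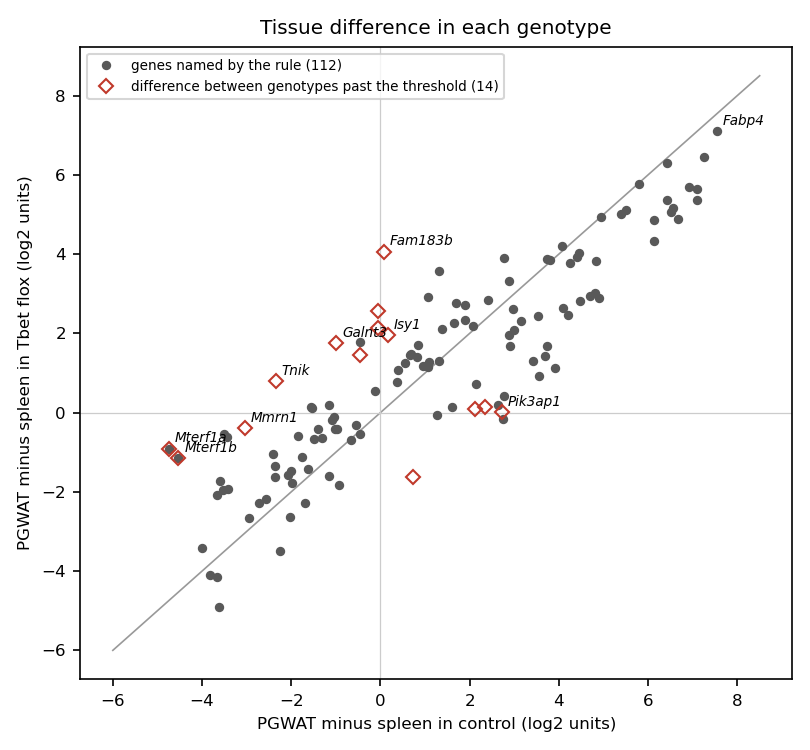
Tissue difference (PGWAT minus spleen, log2 units) in control mice on the horizontal axis and in Tbet flox mice on the vertical axis, for the 112 genes named by the rule and the 14 named genes whose difference between genotypes passed the threshold. The line marks equal differences, and Fosl2 lies near it, at 5.79 and 5.77; positions of genes that were above background in 1 tissue alone, such as Fabp4 and Mterf1a, rest on a level at background in the other.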

How the data were processed

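Total RNA of 12 samples was amplified with NuGen Ovation Pico, labelled with NuGen Encore Biotin and hybridised to Illumina arrays, per the labels' protocols. The authors deposited bead-averaged intensity values without background subtraction, with a detection p-value per probe, per the file headers, made with GenomeStudio per the submitters' processing notes (version not given). A deposited table of the authors' processed values on the log2 scale served as an alternative. Intensities were corrected, quantile normalized and put on the log2 scale with limma 3.58.1 (neqc, offset 16) in R 4.3.3. Of 45281 probes, 22833 reached a detection p under 0.05 on 3 or more arrays and stayed in. The brightest probe stood for each of 10882 genes, and 4426 probes without a gene symbol were tested as they were, which gave 15308 features. Symbols came from the platform annotation (34885 probes with 1 symbol, 18 with several, 10378 with none), and 34807 probes matched by Entrez ID. Genes with no probe under their symbol were not analysed here.

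One linear model over all 12 arrays with 4 group means (8 residual degrees of freedom) gave both tissue differences and their difference between genotypes, with Benjamini-Hochberg adjustment over all features and a threshold of 0.05. No other test was used. With 3 arrays against 3, an exact permutation test of 1 gene cannot go below p = 0.1. At-least folds used the lowest normalized signal among probes above background on each dim array, or the dim probe's own where higher. Genes were named by rule. The rule took the 12 called genes with the largest rise and the 12 with the largest fall, provided that no PGWAT array overlapped a spleen array and that the brighter tissue had a detection p under 0.01 throughout. It added 17 Treg genes in any case, and from each of 29 lists (19 of pathways, 10 of cell type markers) the 5 called members that differed most, or the 2 with the smallest p. Further list members and other genes were chosen after their values were seen. The samples, lists and tests were chosen with earlier results of these data known. Promoters were read from RefSeq (GRCm38.p6). The model was tested on simulated data, in which standard deviations were dealt to genes at random. It found 7% of differences of 1 log2 unit, 56.8% of those of 2 and 95.4% of those of 4. It called 0.088% of the unchanged features. These shares need not hold for the real arrays. A difference that did not pass is thus not shown to be absent. The alternatives tried were other background correction, scaling, filters, probe averaging, array weights, the 6 arrays alone, a replicate block, a minimum fold and leaving out each array.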

Additional observations from a re-analysis of the deposited data

Results flagged for a closer look

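The tissue difference itself differed between control and Tbet flox mice for 18 genes and unnamed probes, by the limma test of that difference. Values are the tissue difference in control mice minus that in Tbet flox mice, in log2 units, over 3 arrays per group. Mterf1a (-3.84), Mterf1b (-3.39), Tnik (-3.14) and Mmrn1 (-2.65), which encodes a platelet and endothelial protein, were lower in PGWAT than in spleen in control mice and differed less or the other way in Tbet flox mice. Mterf1a and Mterf1b were above background on no PGWAT control array and at least 16.5-fold and 15.4-fold lower there, and Tnik and Mmrn1 were above background on 1 PGWAT control array each. Where a group was at background, the values in this paragraph rest on that level. Fam183b (-3.99), Hlf (-2.63), a circadian transcription factor, Mmp25 (-2.2), a metalloproteinase, Isy1 (-1.79), Rab11fip1 (-1.91) and Galnt3 (-2.76) were higher in PGWAT than in spleen in Tbet flox mice. Fam183b measured 8.57, 9.12 and 8.63 in the PGWAT Tbet flox arrays and at most 4.85 on any other array. Pik3ap1 (2.7), Fxyd2 (2.2) and Sox7 (2.02), an endothelial transcription factor, were higher in PGWAT in control mice alone, and Rxylt1 (2.37) was lower in PGWAT in Tbet flox mice. These 14 named genes were picked by that test on these same arrays. That their PGWAT arrays did not overlap between the genotypes is thus no further support.

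All 14 lost significance with the replicate number as a block, and 7 with arrays scaled to 1 median. Without spleen control 1, 2 and 3, 11, 12 and 10 did, and without any 1 PGWAT control array 0 did. All groups share 1 spread per feature and the PGWAT control arrays varied more, so these counts do not show which arrays the calls rest on.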

How the results depend on the processing

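The 2417 calls of control mice (915 higher, 1502 lower) ranged from 2208 to 2551 under other background correction, scaling, filters, probe averaging and a weight per tissue, and were 1921 with a weight per array and 1728 (694 and 1034) in a fit of the 6 arrays alone. That fit also ended the calls of Cd247, Col3a1, Hspb1 and Ptprc (limma adjusted p = 0.0582 to 0.0812). A minimum difference of 1 log2 unit left 336 (238 and 98). Leaving out 1 array gave 1196 to 3138 calls (542 to 1182 higher, 654 to 1956 lower), with more than 2417 without PGWAT control 1, 2 or 3 (2487, 3138 and 2691). The replicate block gave 1481 (811 lower), against 709 for the Tbet flox mice (393 higher, 316 lower) and 0 for the difference between genotypes (0 and 0). Same-numbered PGWAT and spleen control arrays correlated at 0.0147, 0.00362 and -0.00026 in their deviations from the group means. PGWAT control 1 and 2 correlated best with the spleen array of their own number, and PGWAT control 3 with spleen control 2 (0.00949). All of these correlations lay between -0.0127 and 0.0147, so the numbers were not taken as pairs.

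The 1549 calls of Tbet flox mice were 377 higher and 1303 lower with arrays scaled to 1 median, 186 in all with the minimum difference (152 and 34) and 617 to 1940 without 1 array (344 to 813 higher, 273 to 1127 lower). The 18 calls between genotypes were 11 with scaling to 1 median (6 negative), 41 without background correction (12 and 29), 39 in the authors' processed values (11 and 28), 39 without the filter (9 and 30), 11 with a weight per tissue (3 and 8) and 2 with the minimum difference (0 and 2). With probes averaged, 2 were positive. Without 1 array they ranged from 3 to 354 (1 to 136 positive, 2 to 218 negative). The cause of these shifts was not tested.

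Of 186 named genes 144 were called, and 110 stayed called under every alternative but the minimum difference and the 6 arrays alone. Signs turned, for genes not called, when 1 array was left out, for Il2ra (-0.25 to 0.0015), Gata3 (-0.86 to 0.13), Tbx21 (-0.47 to 0.92), Fam183b (-0.0015 to 0.17) and Hlf (-0.11 to 0.0043), and with scaling to 1 median for Hlf (0.012) and Mmp25 (0.11). The spread between the 3 PGWAT arrays limits which differences could be called, as does the signal over background of dim probes.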

Other observations

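Genes outside the lists also moved between the tissues, and those given here were chosen after their values were seen. The metallothioneins Mt1 and Mt2, which bind zinc and other metals, measured 11.28, 10.62 and 10.52 and 8.47, 7.33 and 9.01 in PGWAT control and rose by 6.08 log2 units (SE 0.35, limma adjusted p = 2.85e-06) and 3.49 log2 units (SE 0.38, limma adjusted p = 0.000201), with 1 of 3 spleen control arrays above background for each. Lmna, which encodes the nuclear lamins A and C, rose by 4.99 log2 units (SE 0.24, limma adjusted p = 8.45e-07), Crem, a factor of cAMP signalling, by 4.07 log2 units (SE 0.34, limma adjusted p = 3.21e-05), and Cdkn1a, the cell cycle inhibitor p21, by 4.89 log2 units (SE 0.21, limma adjusted p = 4.02e-07). These 3 measured 11.13, 11.23 and 9.24 in PGWAT Tbet flox 3. In the PGWAT control arrays Lmna measured 10.6, 10.62 and 10.24, Crem 10.84, 10.95 and 10.08 and Cdkn1a 9.71, 9.25 and 9.43.

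Some genes known from tissue macrophages that the marker list does not hold were above background on no spleen control array. Stab1, a scavenger receptor, C3ar1, a complement receptor, F13a1, a coagulation factor chain, and Folr2, a folate receptor, were at least 20.1-fold, 26-fold, 18.3-fold and 9.27-fold higher in PGWAT control. Clec10a, a lectin of macrophages and dendritic cells, rose by 5.75 log2 units (SE 0.40, limma adjusted p = 1.19e-05). Vascular and stromal genes followed the order of the arrays' stromal markers: Rgs5, a pericyte gene, measured 11.35, 8.59 and 9.59, Cav1, a caveola protein, 10.29, 7.74 and 8.71, Cldn5, a tight junction protein, 10.99, 8.71 and 9.31, and Timp3, a matrix protein, 10.97, 8.35 and 9.0, each highest in PGWAT control 1 and lowest in PGWAT control 2. Bgn, Gpihbp1 and Plau were at least 19.4-fold, 9.46-fold and 31.4-fold higher.

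Among the lower genes, Lax1, a negative regulator of lymphocyte receptor signalling, was above background on no PGWAT control array and at least 4.98-fold lower there (limma adjusted p = 1.83e-05). Slamf6, a receptor of lymphocytes, fell by 3.4 log2 units (limma adjusted p = 0.00298), although a dimmer Slamf6 probe differed by 0.24, and Slc40a1, the iron exporter ferroportin, fell by 3.29 (limma adjusted p = 0.00466), each with 2 of 3 PGWAT arrays above background. Gimap5, which supports lymphocyte survival, fell by 3.01 (limma adjusted p = 0.000533) and differed by -0.69 in the Tbet flox mice (limma adjusted p = 0.284). For Gimap5 the test of the difference between genotypes did not pass.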
